A study of Mus musculus with 4 samples.

Results

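The EGF family was followed here through 10 genes of mouse embryonic fibroblasts, out of 21839 genes in the deposited expression table. The genes were taken by name: the ligands Egf, Ereg, Areg, Hbegf, Tgfa and Nrg1, the receptors Egfr, Erbb2 and Erbb3, and Errfi1, which encodes the intracellular receptor inhibitor MIG6. Each of the 10 names belonged to 1 gene ID. RNA was sequenced from wild-type fibroblasts derived from embryos at day 13.5, grown on the upper side of a culture insert with a 0.4 µm polyester membrane and harvested at 48 h. There were 4 conditions with 1 library each: fibroblasts alone, fibroblasts cocultured with bone marrow mesenchymal stem cells (MSCs), fibroblasts alone with the NF-κB inhibitor QNZ, and cocultured fibroblasts with QNZ. The paper describes C57BL/6 mice, the labels do not make clear what lay below the membrane, and no dose of QNZ is stated in the sources used here.

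EGF family ligands are made as membrane-anchored precursors and are cut loose by ADAM proteases at the cell surface. Each ligand carries an EGF-like domain that binds a receptor of the ERBB family, the receptors pair up, and the RAS to ERK kinase cascade is switched on. EGF, TGF-alpha, amphiregulin (Areg), epiregulin (Ereg) and heparin-binding EGF (Hbegf) bind EGFR, epiregulin and heparin-binding EGF also bind ERBB4, and neuregulin 1 (Nrg1) binds ERBB3 and ERBB4. ERBB2 has no known ligand and acts as a partner, ERBB3 has little kinase activity of its own, and MIG6 blocks the kinase domain of EGFR. In fibroblasts the pathway is best known for driving proliferation and migration.

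The part that the ligands have in common is the EGF-like domain, held by 3 pairs of cysteines, and its coding sequence is shown here for 5 of the 6 ligands whose levels are compared below. The search was for 6 cysteines with gaps of 7, 4 to 5, 10 to 13, 1 and 8 residues. All 6 ligand coding sequences matched this pattern once, and EGF-like domains with other gaps were not searched for. In each ligand the domain was split over 2 consecutive coding exons, numbers 20 and 21 of the Egf transcript, 2 and 3 of Nrg1, and 3 and 4 of the other ligands. The sequences are from GENCODE M21 transcripts (GRCm38), read 5′ to 3′ on the coding strand, with the intron between the exons left out, and capitals mark the 6 cysteine codons.
Ereg: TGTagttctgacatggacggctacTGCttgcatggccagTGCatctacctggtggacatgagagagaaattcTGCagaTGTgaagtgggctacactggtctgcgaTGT
Areg: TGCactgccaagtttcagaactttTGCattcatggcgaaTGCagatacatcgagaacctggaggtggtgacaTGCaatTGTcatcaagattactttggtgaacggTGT
Tgfa: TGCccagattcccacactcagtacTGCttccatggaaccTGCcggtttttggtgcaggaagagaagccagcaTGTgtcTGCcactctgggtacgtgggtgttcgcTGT
Egf: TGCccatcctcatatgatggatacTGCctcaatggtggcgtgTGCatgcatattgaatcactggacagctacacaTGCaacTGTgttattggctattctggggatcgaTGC
Nrg1: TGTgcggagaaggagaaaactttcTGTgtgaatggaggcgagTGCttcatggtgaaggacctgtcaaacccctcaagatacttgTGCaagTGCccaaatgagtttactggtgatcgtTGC

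Between neighbouring cysteines lay 7, 4, 10, 1 and 8 codons in Ereg, Areg, Tgfa and Hbegf. Egf had 5 codons in the second gap, and Nrg1 had 5 in the second and 13 in the third. The search fixed the other gaps, so only these could differ. The domains lie at chr5:91088496-91089111 (Ereg, plus strand), chr5:91143614-91144364 (Areg, plus), chr6:86263200-86269960 (Tgfa, plus), chr3:129686322-129690850 (Egf, minus) and chr8:31837698-31849398 (Nrg1, minus). These spans include the intron.

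Each library held between 13153696 and 15778488 reads assigned to genes, and the 10 genes took 5481, 9634, 5608 and 8117 of them in the order alone, cocultured, QNZ alone and QNZ in coculture, which holds for all values below. With 1 library per condition there is no spread between cultures and no test of the conditions. Intervals are exact, at 95%, cover counting error only and compare libraries, and coculture or QNZ cannot be told apart from any other difference between 2 libraries. Levels are given as FPKM, reads per 1000 bases of gene and 1000000 reads, and higher or lower genes are those whose log2(FPKM + 1) moved by 1 or more. The label of the cells was checked against 10 fibroblast markers, and all 10 had an FPKM of at least 1 in every library. Of these 10, 5 were higher and 0 lower in coculture in each pair, among them Dcn (2.56 and 2.87) and Pdgfra (1.18 and 1.99). Of all genes at an FPKM of at least 1 in some library, 24% were higher and 11% lower without QNZ. With QNZ these shares were 14% and 8.7%. The median difference of the fibroblast markers was 0.75 without QNZ and 1.01 with it. With the trend of gene length taken off it was 0.27 and 0.79. Several of these markers are also made by MSCs, so they do not tell the 2 cell types apart. Markers of marrow stroma (10 genes, led by Grem1 and Cxcl12) summed to an FPKM of 121, 877, 184 and 1091, and macrophage markers to 8.08, 17.1, 11.1 and 11.2, with the defining gene Ptprc at 0 to 5 reads. The mitochondrial share of reads was 0.291%, 0.738%, 0.580% and 1.49%. The marrow stroma sum and the mitochondrial share were higher in coculture in both pairs of libraries, the macrophage sum in the pair without QNZ, and the mitochondrial share was also higher with QNZ in both cultures. Their part in the results below was not tested. In bulk RNA, fewer cells of a type and less RNA per cell cannot be told apart.

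Errfi1 had the highest FPKM of the 10 genes in all 4 libraries. Hbegf came second in both libraries of fibroblasts alone, and Ereg came second in both cocultured libraries. Erbb2 lay above Egfr in every library, with an Egfr to Erbb2 ratio of FPKM between 0.484 and 0.759. At the low end, Egf, Tgfa and Erbb3 stayed under an FPKM of 1 in every library. The counting intervals of neighbours overlapped for Ereg and Egfr and among Tgfa, Erbb3 and Egf in fibroblasts alone, for Areg and Egfr and for Tgfa and Erbb3 in fibroblasts alone with QNZ, and for Egf and Erbb3 in both cocultured libraries. These neighbours in the order could not be separated by counting.

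**Figure D1:**
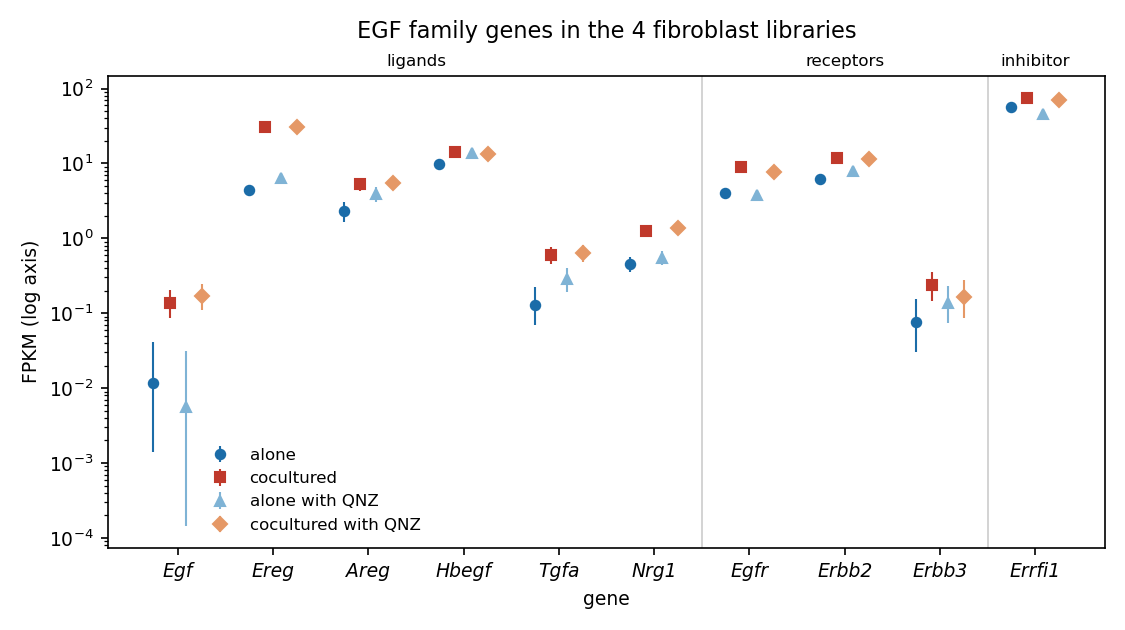
FPKM (log axis) of the 10 genes in the 4 libraries, with 1 point for each library and vertical lines for the exact 95% Poisson interval of the reads. Both cocultured libraries sit above both libraries of fibroblasts alone for Ereg (30.4 and 30.8 against 4.43 and 6.36), while the 4 points of Hbegf lie between 9.73 and 14.1.

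Ereg was the 1 gene of the family counted as higher in coculture, both without and with QNZ. It encodes epiregulin, a ligand of EGFR and ERBB4. Its reads were 282, 1864, 414 and 1675, and its FPKM was 4.43, 30.4, 6.36 and 30.8. Both cocultured libraries were higher than both libraries of fibroblasts alone. Without QNZ the difference of log2(FPKM + 1) was 2.53, and the ratio of reads per 1000000 (CPM) was 6.85 (interval 6.04 to 7.79). With QNZ the difference was 2.11 and the ratio 4.85 (4.36 to 5.42). In fibroblasts alone 28.1% of all genes had a higher FPKM than Ereg, and in cocultured fibroblasts 6.99%. Ereg spans chr5:91074622-91093646 on the plus strand (mm10, ENSMUSG00000029377). The antisense gene Gm19610 shares exon bases with it in GENCODE M21, and the strand setting of the read counting is not stated, so reads of the 2 could not be separated here.

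Areg is the next gene of the table on the same strand. It encodes amphiregulin, an EGFR ligand that also binds heparan sulfate. Its reads were 43, 95, 75 and 88, few in every library, and its FPKM was 2.30, 5.26, 3.91 and 5.51. The library of fibroblasts alone was the lowest, and the other 3 lay closer together. The difference between cocultured fibroblasts and fibroblasts alone was 0.92, under the size counted, with a CPM ratio of 2.29 (1.58 to 3.36). With QNZ it was 0.41, with a ratio of 1.41 (1.02 to 1.94). The Ereg to Areg ratio of FPKM was 1.93 in the library of fibroblasts alone and 5.78 in the cocultured library. Areg lies at chr5:91139599-91148432 on the plus strand (ENSMUSG00000029378), 45952 bases after the end of Ereg, and overlaps no other annotated gene.

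Areg and Ereg sit in a cluster of EGF family ligands on chromosome 5, which runs from Epgn to Btc over 375531 bases and holds no other gene of the table. Epgn, which encodes epigen, had 0, 3, 0 and 0 reads. Btc, which encodes betacellulin, had 16, 35, 30 and 38 reads, with a coculture ratio of 2.27 (1.22 to 4.39) without QNZ and 1.52 (0.917 to 2.54) with it. In every library Ereg had more reads than the other 3 genes of the cluster together. Epgn lies at chr5:91027464-91035215 on the plus strand and Btc at chr5:91357261-91402994 on the minus strand.

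RefSeq promoter sequence was at hand for 6 of the 10 genes, Egf, Areg, Tgfa, Egfr, Erbb2 and Errfi1. The 250 bases before the start of Areg (chr5:91139349-91139598, plus strand, GRCm38.p6) are shown because they hold a cAMP response element, which the capitals mark.
Areg promoter: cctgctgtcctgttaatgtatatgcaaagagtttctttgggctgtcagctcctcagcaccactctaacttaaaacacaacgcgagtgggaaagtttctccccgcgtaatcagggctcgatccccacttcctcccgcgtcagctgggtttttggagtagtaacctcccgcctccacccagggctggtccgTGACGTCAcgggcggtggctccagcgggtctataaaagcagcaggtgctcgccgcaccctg
The element TGACGTCA, searched on both strands, begins 61 bases before the start. It was found in 1.55% of 32851 promoters of this length, and of the 6 genes Errfi1 also held it, 51 bases before the second of its 2 starts. The AP-1 motif TGANTCA (6.75% of promoters) and the NF-κB motif (7.25%) were not found in these windows. The core ACGTG (16.6%) was found at 1 start each of Egf and Errfi1, in Errfi1 overlapping the cAMP element. A match describes these letters only.

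Hbegf, the ligand with the highest FPKM in fibroblasts alone, had the smallest coculture ratio of the 6 ligands in both pairs of libraries. It encodes heparin-binding EGF, a ligand of EGFR and ERBB4. Its reads were 725, 1013, 1040 and 861, and its FPKM was 9.73, 14.1, 13.6 and 13.5. The library of fibroblasts alone without QNZ was the lowest and the other 3 were close together. The coculture difference was 0.49 without QNZ, with a CPM ratio of 1.45 (1.31 to 1.59), and -0.01 with QNZ, with a ratio of 0.993 (0.906 to 1.09). Hbegf lies at chr18:36504927-36515805 on the minus strand (ENSMUSG00000024486) and overlaps no other gene.

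The makeup of the ligand RNA differed between libraries. The 6 ligands summed to an FPKM of 17.1, 51.7, 24.7 and 52.1. Hbegf made up 57.1% and 55.1% of this sum in fibroblasts alone without and with QNZ, and 27.2% and 26.0% in the cocultured libraries. Ereg made up 26.0% and 25.7%, against 58.7% and 59.2%. Areg held between 10.2% and 15.8%, and Egf, Tgfa and Nrg1 together between 3.40% and 4.19%.

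Tgfa and Egf were measured on few reads. Tgfa encodes TGF-alpha, an EGFR ligand, and had 13, 58, 29 and 54 reads, an FPKM of 0.130, 0.601, 0.283 and 0.633. Both cocultured libraries were higher than both others, with a CPM ratio of 4.62 (2.5 to 9.2) without QNZ and 2.23 (1.40 to 3.64) with it. Egf, the ligand after which the family is named, had 2, 23, 1 and 25 reads, an FPKM of 0.0115, 0.137, 0.00562 and 0.169. Its coculture ratio was 11.9 without QNZ, with an interval from 2.94 to 104, and 30.0 with it, with an interval from 4.91 to 1231. At these levels the difference of log2(FPKM + 1) cannot reach the size counted, and it was 0.50 for Tgfa and 0.17 for Egf. Tgfa lies at chr6:86195223-86275719 on the plus strand (ENSMUSG00000029999) and shares exon bases with Gm43917 on the other strand. Egf lies at chr3:129677565-129755316 on the minus strand (ENSMUSG00000028017) and shares them with 2 antisense genes, Gm42697 and 6330410L21Rik, a limit on values of so few reads.

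Nrg1, which encodes neuregulin 1, a ligand of ERBB3 and ERBB4, had 73, 199, 92 and 192 reads and an FPKM of 0.448, 1.27, 0.551 and 1.38. It was higher in both cocultured libraries than in both others on the deposited scale, but with the trend of gene length taken off the coculture difference was -0.33 without QNZ and -0.08 with it. With the trend taken off the ratio of reads instead, the values were 0.08 and 0.38, so the sign depends on the measure. As deposited the difference was 0.65 without QNZ and 0.62 with it, with CPM ratios of 2.82 (2.15 to 3.75) and 2.5 (1.94 to 3.25). Nrg1 passed an FPKM of 1 only in the cocultured libraries. It lies at chr8:31814551-32884254 on the minus strand (ENSMUSG00000062991), is the 1 gene of the 10 whose position differs in GENCODE M21, and shares exon bases there with the noncoding Gm26578 on the other strand.

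Of the receptors, Egfr and Erbb2 were well measured and Erbb3 was not. Egfr encodes the receptor of EGF and had 712, 1499, 686 and 1155 reads and an FPKM of 4.08, 8.90, 3.84 and 7.75. The 2 cocultured libraries were higher than the 2 others on the deposited scale, by 0.96 without QNZ (CPM ratio 2.18, 1.99 to 2.39) and 0.86 with it (2.02, 1.84 to 2.22), both under the size counted. With the trend of gene length taken off, these were -0.07 and 0.11. Egfr lies at chr11:16752203-16918158 on the plus strand (ENSMUSG00000020122).

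Erbb2, the partner receptor, had 501, 909, 652 and 792 reads and an FPKM of 6.24, 11.7, 7.93 and 11.6. It too was higher in both cocultured libraries, by 0.81 without QNZ (ratio 1.88, 1.68 to 2.10) and 0.49 with it (1.46, 1.31 to 1.62). Erbb2 lies at chr11:98412470-98437716 on the plus strand (ENSMUSG00000062312), and its exons share bases with those of Mien1 on the other strand, which had between 6 and 28 reads. Erbb3, a receptor of neuregulins, had 7, 21, 13 and 13 reads and an FPKM of 0.0755, 0.235, 0.137 and 0.164. Its ratio was 3.11 (1.27 to 8.65) without QNZ and 1.20 (0.512 to 2.81) with it, and a difference between the cultures with QNZ was not detectable at this depth. Erbb3 lies at chr10:128567523-128589652 on the minus strand (ENSMUSG00000018166). Since Erbb3 is also made by Schwann cells, their 8 markers were read beside it. They summed to an FPKM of 2.40, 3.82, 2.48 and 2.84, with the defining gene Sox10 at 7, 21, 0 and 21 reads. Their median FPKM was 0.087, 0.477, 0.011 and 0.269. In each pair 4 of 8 had a coculture ratio of at least 2 with its interval above 1, against 32.9% and 23.2% of genes with a read. An interval below 1 was found for 0 of 8 without QNZ and 2 of 8 with it. Their part in the values of Erbb3 was not tested.

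Errfi1 had the highest level of the 10 genes but a small coculture ratio. Its product MIG6 is itself induced by EGFR signalling and inhibits the receptor. It had 3123, 3953, 2606 and 3262 reads and an FPKM of 56.6, 74.2, 46.1 and 69.2. The cocultured libraries were higher than the others on the deposited scale, by 0.39 without QNZ (CPM ratio 1.31, 1.25 to 1.37) and 0.58 with it (1.50, 1.43 to 1.58), but without QNZ the sign turned to -0.14 under median-of-ratios scaling. It lies at chr4:150853919-150868892 on the plus strand (ENSMUSG00000028967).

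Counted over the 10 genes, coculture without QNZ gave 1 higher gene, Ereg, and 0 lower, where 12.5% of all genes were higher and 5.73% lower. Of the 10 genes 7 reached an FPKM of 1 in some library, Nrg1 in the cocultured libraries only, so this set was chosen in part on coculture values. Among all genes that reached an FPKM of 1 in some library, 24% were higher and 11% lower. The median difference of the 10 genes was 0.57, against 0.17 over the 15778 genes with a read in either library. It was 0.36 under median-of-ratios scaling and 0.014 with the trend of gene length taken off, or 0.27 over the 7 genes that reached an FPKM of 1. In CPM the interval of the ratio lay above 1 for 10 of 10 genes, against 49.4% of genes with a read. The ratio was at least 2 with its interval above 1 for 7 of 10, against 32.9%, and at most 0.5 with its interval below 1 for 0 of 10, against 10.1%. These 7 were Egf, Ereg, Areg, Tgfa, Nrg1, Egfr and Erbb3. Genes with a read include genes of few reads, whose intervals are wide, so these shares are not matched for depth, here or below. Of the 15778 genes, 12559 had at least 20 reads in the pair and a read in both libraries.

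**Figure D2:**
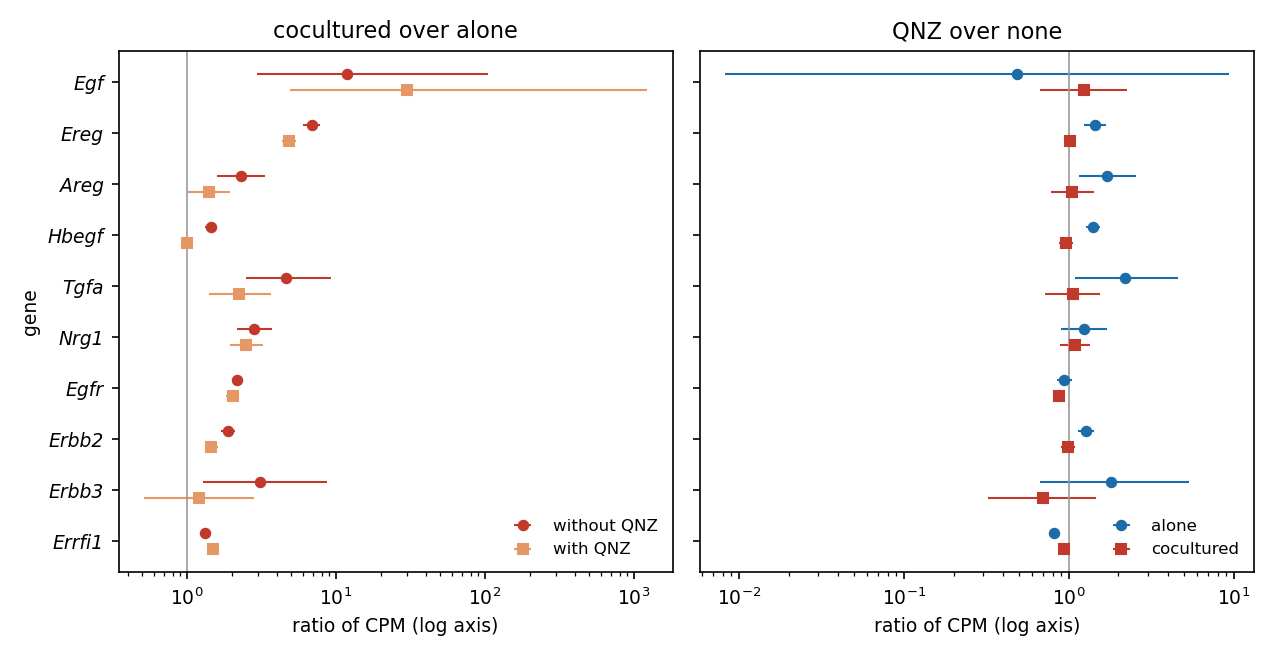
Ratio of CPM (log axis) for the 10 genes, with 1 point for each pair of libraries and horizontal lines for the exact 95% interval of counting error. On the left (cocultured over alone), Ereg lies at 6.85 without QNZ and 4.85 with it and Hbegf at 1.45 and 0.993, and on the right (QNZ over none), 8 of 10 intervals in cocultured fibroblasts include 1 and those of Egfr (0.871) and Errfi1 (0.933) lie below it.

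The direction of these differences rests in part on how libraries are scaled. All 10 genes lay above 0 without QNZ on the deposited scale and as TPM, but under median-of-ratios scaling Errfi1 was at -0.14 and Hbegf at 0.00, and with the trend of gene length taken off 5 of 10 lay above 0. The median over all genes at an FPKM of at least 1 was 0.35 as deposited, -0.07 after median-of-ratios scaling and 0.90 as TPM. Of all genes, 6.74% were then higher and 10.7% lower under median-of-ratios scaling, and 27.6% and 3.03% as TPM. Relative to the deposited median, Ereg was 2.18 higher, Egfr 0.61, Areg 0.57 and Erbb2 0.46 higher, while Hbegf was 0.14 and Errfi1 0.03 higher. Coculture differences also followed gene length. With genes in 10 groups by length, the median was -0.74 for genes of at most 1773 bases and 1.12 for those of at least 9914 bases.

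Read against genes of like length, Ereg and Areg lay high in their groups and Egfr did not. Ereg (4128 bases) lay above 99.4% of its length group, whose median was 0.25. Areg (1215 bases) lay above 91.0% of the shortest group. Egfr (11326 bases) was 0.96 where its group had a median of 1.12. With a smooth trend of length taken off, the difference was 2.29 for Ereg, 1.70 for Areg, 0.35 for Erbb2, 0.27 for Errfi1, 0.10 for Hbegf, -0.07 for Egfr and -0.33 for Nrg1, and -0.86, -0.13 and -0.37 for Egf, Tgfa and Erbb3. These last 3 come with an FPKM under 1, where the pseudocount keeps a difference near 0. The pseudocount also shrinks the difference of Nrg1, at an FPKM of 0.448 and 1.27. With the trend taken off the ratio of reads instead, Ereg was 2.40, Areg 2.09, Egf 2.08, Tgfa 1.29 and Erbb3 0.79, Nrg1 0.08, Hbegf -0.06 and Egfr -0.38.

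**Figure D3:**
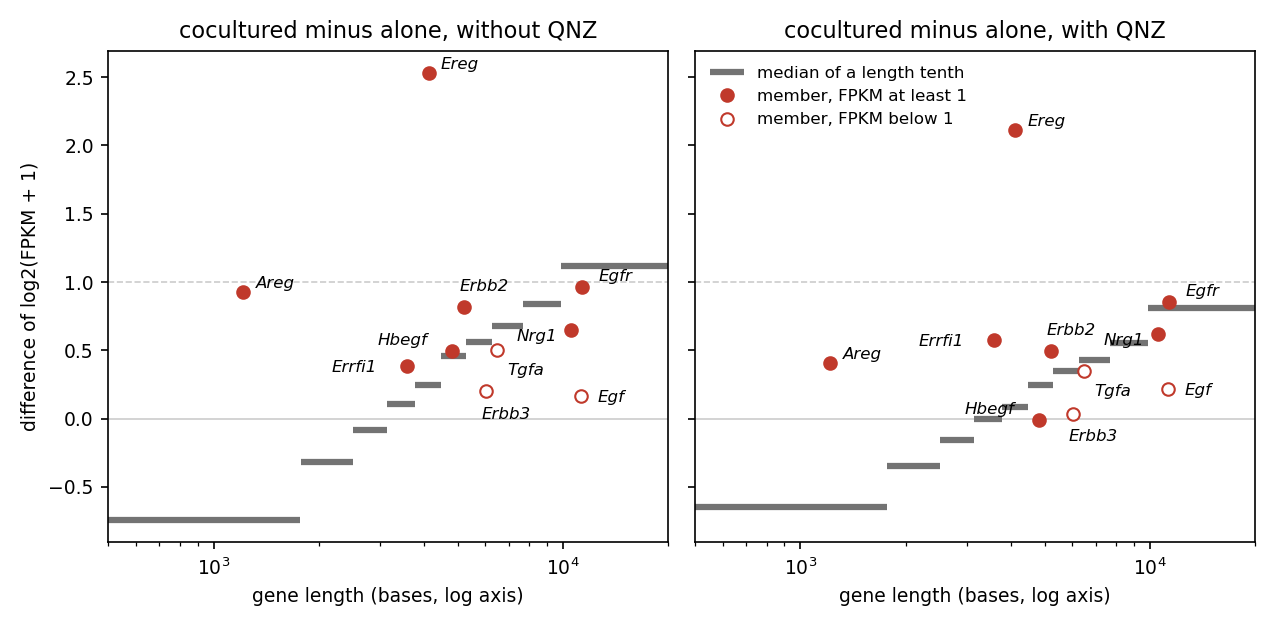
Coculture difference of log2(FPKM + 1), cocultured minus alone, against gene length (log axis), without QNZ on the left and with QNZ on the right, where grey bars are the medians of 10 groups of genes by length and the dashed line is the size counted. Ereg (2.53 and 2.11) and Areg (0.92 and 0.41) lie far above the medians of their groups, and Egfr lies near the median of the longest group (1.12 and 0.81).

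The pair of libraries with QNZ asked whether the same differences were present when this NF-κB inhibitor was added. Ereg was again the 1 higher gene and 0 were lower, where 7.25% of all genes were higher and 4.51% lower (4.61% and 6.85% under median-of-ratios scaling). On that scaling Hbegf was at -0.26 and Erbb3 at 0.00, and the other 8 genes lay above 0. The median of the 10 genes was 0.45, against 0.10 over the 15569 genes with a read in either library. It was 0.25 under median-of-ratios scaling. With the trend of gene length taken off it was 0.029, or 0.22 over the 7 genes that reached an FPKM of 1. The interval of the ratio lay above 1 for 8 of 10 genes, against 43.7% of genes, and the exceptions were Hbegf and Erbb3. The ratio was at least 2 with its interval above 1 for 5 of 10, against 23.2%, namely Egf, Ereg, Tgfa, Nrg1 and Egfr. It was at most 0.5 with its interval below 1 for 0 of 10, against 8.81%. With the length trend taken off, 5 of 10 genes lay above 0, namely Ereg (2.02), Areg (1.12), Errfi1 (0.57), Erbb2 (0.22) and Egfr (0.11), while Nrg1 was at -0.08, Hbegf at -0.22 and the other 3, all under an FPKM of 1, between -0.52 and -0.06.

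For 3 genes, Ereg, Hbegf and Erbb2, the coculture ratio without QNZ had an interval wholly above that with QNZ, where 23.3% of genes with a read did. For Errfi1 the interval with QNZ was the higher, as for 7.61% of genes. The other 6 genes had overlapping intervals. With 1 library per condition, a difference between the responses to coculture was not tested beyond counting error.

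In fibroblasts alone, QNZ gave 0 higher and 0 lower genes of the 10, where 0.577% of all genes were higher and 0.774% lower. The values differed by at most 0.58 on the log2 scale. Areg had a CPM ratio of 1.70 (1.16 to 2.54), Ereg 1.43 (1.23 to 1.67), Hbegf 1.40 (1.27 to 1.54) and Erbb2 1.27 (1.13 to 1.43). Tgfa had 2.18 (1.10 to 4.56), the 1 ratio of at least 2 with its interval above 1, where 7.33% of genes had one, and 0 of 10 had one of at most 0.5 with its interval below 1, against 2.83%. These 5 intervals lay above 1, against 42% of genes with a read. Errfi1 lay below, at 0.815 (0.773 to 0.859), where 14.7% of genes had such an interval. The interval included 1 for Egfr (0.941, 0.846 to 1.05), Nrg1, Erbb3 and Egf, the last on 3 reads in all. The median of genes at an FPKM of at least 1 was itself 0.19 as deposited and -0.02 after median-of-ratios scaling. On that scaling 0.197% of all genes were higher and 1.45% lower. No gene of the 10 changed sign on it, but Erbb2 was at 0.045, Nrg1 at 0.001 and Errfi1 at -0.58. With the trend of gene length taken off, 4 of 10 genes lay above 0, against 7 as deposited, and Egfr was at -0.40. Fibroblast markers moved with QNZ, as 6 of 10 were lower, among them Col3a1 (-1.84) and Pdgfra (-1.32), and the mitochondrial share was 0.580% against 0.291%, and their part in these values was not tested.

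In cocultured fibroblasts, QNZ also gave 0 higher and 0 lower genes of the 10, where 0.160% of all genes were higher and 0.394% lower. Ereg had a ratio of 1.02 (0.951 to 1.09), Hbegf 0.961 (0.877 to 1.05) and Areg 1.05 (0.775 to 1.42). Egfr was at 0.871 (0.806 to 0.941) and Errfi1 at 0.933 (0.890 to 0.978), the 2 of 10 with an interval below 1, where 16% of genes had one. For no gene of the 10 did the interval lie above 1, against 23.6% of genes, and ratios of at least 2 or at most 0.5 with such intervals were 0 of 10 each, against 1.59% and 3.31%. The interval of Areg allows a ratio as low as 0.775 or as high as 1.42, so equal levels are not shown. Fibroblast markers moved with QNZ here too, as 1 of 10 was lower, 9 of 10 had an interval below 1 and the median was -0.44. The mitochondrial share was 1.49% against 0.738%. The part of both in these values was not tested.

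The remaining genes of the family had few reads. Nrg4, a ligand of ERBB4, had 1, 32, 2 and 41 reads, with a coculture ratio of 33.2 (5.54 to 1350) without QNZ and 24.6 (6.39 to 210) with it. Both cocultured libraries were higher than both others. Nrg4 shares exon bases with Fbxo22 on the other strand, which had between 504 and 722 reads, so reads of the 2 may be mixed. Nrg2, which encodes neuregulin 2, had 0, 4, 2 and 15 reads. Without QNZ a difference between the cultures was not detectable at this depth (the interval of the ratio begins at 0.684), and with QNZ it was 9.0 times as high in coculture (2.09 to 81.1). Nrg3 had 0 reads in all 4 libraries. The limit of 3 reads given to a count of 0 is 0.190 to 0.228 CPM here, and the exact upper limit is 3.69 reads. Erbb4, the receptor that several of these ligands share, had 1, 2, 1 and 2 reads.

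Genes that act on ligands and receptors were read from 5 lists, beside all genes at an FPKM of at least 1 in some library. Of all such genes, 24% were higher and 11% lower without QNZ, and 14% and 8.7% with it. Of 10 genes of ligand release, all with an FPKM of at least 1, 6 were higher and 0 lower in coculture without QNZ and 2 were higher with it. Timp3, an inhibitor of ADAM proteases, went from an FPKM of 10.3 to 43.0 (difference 1.96), Adam9 from 28.7 to 97.3 (1.73), Adam17, the main sheddase of EGFR ligands, from 5.52 to 15.5 (1.34), and Adam10 from 11.1 to 29.0 (1.31). The median was 1.21, and 0.57 with the length trend taken off. Of 7 surface partners of the ligands, 1 was higher and 0 lower in both pairs, the integrin gene Itgav (1.51 and 1.03). The median of the 7 was 0.34 without QNZ and 0.24 with it, and 0.012 and -0.12 with the length trend taken off.

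Genes that dampen the receptors made up 18, all with an FPKM of at least 1 in some library. Of these, 8 were higher and 0 lower without QNZ, 6 and 0 with it. Socs4 (1.98), Spred1 (1.72), Cbl, the ubiquitin ligase of EGFR (1.57), and Rasa1, a RAS GTPase activator (1.57), differed most. Their median was 0.96, and 0.45 with the length trend taken off, and Cbl was at 0.49 with it taken off. In this list QNZ in cocultured fibroblasts gave 1 lower gene, Cav1 (-1.13), which encodes caveolin 1, where 0.309% of genes at an FPKM of at least 1 were higher and 0.759% lower.

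The genes that relay the signal inside the cell, in the ERK, PI3K and STAT branches, moved both ways. All 22 had an FPKM of at least 1 in some library, though Sos2 (0.778) and Braf (0.796) lay under it in fibroblasts alone. Of these 22 genes, 7 were higher and 2 lower without QNZ, 4 and 1 with it. Pik3r1, a PI3K subunit (2.09), Sos1 (2.07) and Braf (1.81) were higher, while Hras went from an FPKM of 39.3 to 8.30 (-2.11). The median was 0.47, and -0.15 with the length trend taken off. Of 18 genes known to respond to ERK, 17 had an FPKM of at least 1 in some library. Without QNZ, 2 were higher, Klf10 (2.05) and Fosl1 (1.01), and 0 lower. With QNZ, 0 were higher and 1 lower, Dusp5 (-1.25). Dusp4, an ERK phosphatase, was the 1 gene of this list that was higher with QNZ, by 1.69 in fibroblasts alone and 1.08 in coculture, with an FPKM of 25.3, 29.9, 83.6 and 64.3. In fibroblasts alone QNZ gave 1.11% of such genes as higher and 1.49% as lower.

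**Figure D4:**
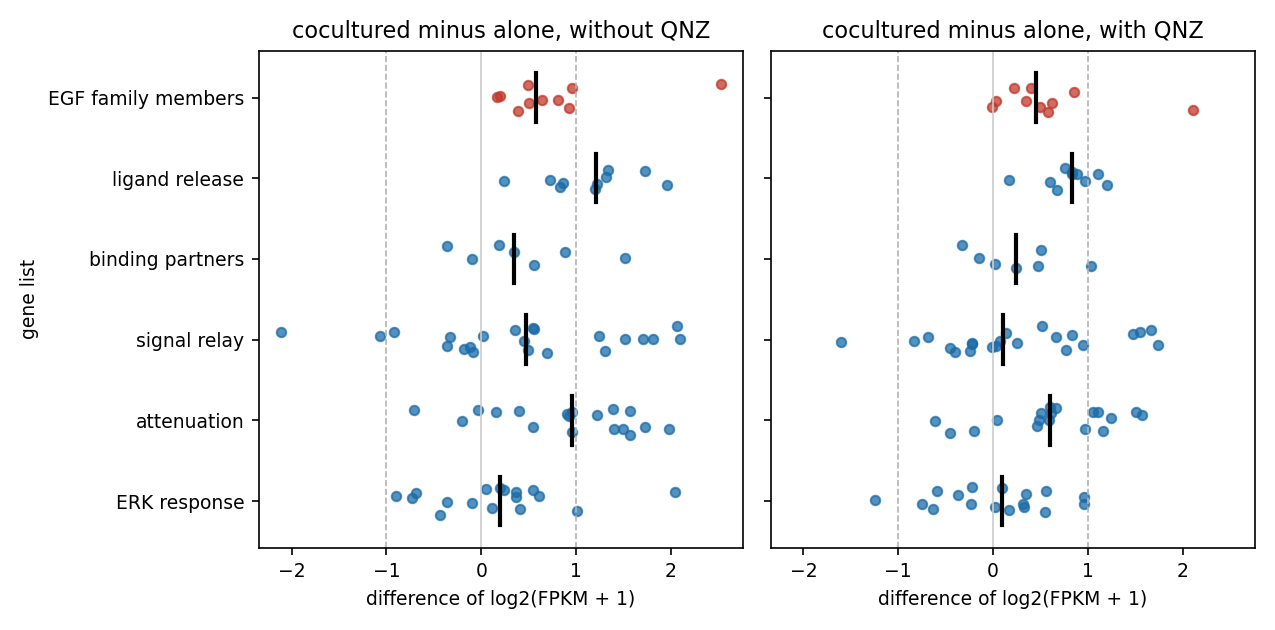
Coculture difference of log2(FPKM + 1), cocultured minus alone, for the 10 EGF family genes and 5 lists of pathway genes, without QNZ on the left and with QNZ on the right, with 1 point for each gene (list genes that reached an FPKM of 1 in some library), black bars for medians and dashed lines for the size counted. Without QNZ the medians run from 0.20 for the ERK response to 1.21 for ligand release, and the point of Ereg at 2.53 is the highest of all.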

How the data were processed

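RNA-seq of fibroblasts was analysed in 4 conditions of 1 library each, matched to the table by column name (0 value columns unmatched). The authors prepared stranded dUTP libraries, used STAR 2.5.4b for mapping (genome mm10), and their processing notes list Cufflinks 2.2.1 with Cuffnorm. The authors deposited whole-number read counts, not normalized. The deposited FPKM equal the count over gene length and column total, within a relative tolerance of 1e-06 (0 of 21862 gene IDs differed). How reads were counted, annotation version and strand setting are not given in the sources used here.

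Values of 23 symbols with several gene IDs were summed. Differences are of log2(FPKM + 1), counted at a size of 1. CPM ratios carry exact binomial intervals and levels exact Poisson intervals, at 95%, and a count of 0 was given a limit of 3 reads. The length trend was a lowess fit (span 0.3) over the 11335 genes at an FPKM of at least 1 in some library. Scripts were tested on simulated data. No p-values were computed.

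The 10 genes and all lists were chosen with earlier results of these data known. All 10 genes, the other family members, and up to 4 genes of each list with the largest counted coculture differences without QNZ were named, and Dusp4, Dusp5 and Cav1 were added after their values were seen. Alternatives were pseudocounts of 0.1 and 0.01, FPKM filters of 1 and 5, median-of-ratios scaling, TPM, a size of 2, the length trend, a CPM ratio rule, and 1 gene ID per symbol. The length trend of the read ratio, over genes with at least 20 reads, was added after the data were seen. Tables were handled with pandas 2.3.3 and numpy 2.4.6 in Python 3.11.15, intervals with scipy 1.17.1, the lowess fit with statsmodels 0.14.6, and plots with matplotlib 3.10.9.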

Additional observations from a re-analysis of the deposited data

How the results depend on the processing

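The count of family genes higher in coculture without QNZ was 1 as reported, 6 with a pseudocount of 0.1, 7 with 0.01, 7 as TPM, 2 with the length trend removed, 4 with the length trend of the read ratio removed (chosen after the data were seen) and 7 by the CPM ratio rule. With QNZ it was 1 as reported and 3, 5, 3, 2, 3 and 5 under the same settings in that order. For QNZ in fibroblasts alone it was 0 as reported, 1 with a pseudocount of 0.01 and 1 by the ratio rule, and 1 gene (Egf, on 3 reads in all) was lower with the length trend of the read ratio removed. The pseudocount of 1 keeps genes under an FPKM of 1 from being counted. Ereg was counted as higher in coculture under every setting named here, without and with QNZ. FPKM filters, median-of-ratios scaling, a size of 2 and 1 gene ID per symbol left each of the 4 counts of higher genes as reported, and for QNZ in cocultured fibroblasts both counts were 0 under every setting. No paired analysis was possible because each condition had 1 library. Depth limits the values of Egf, Erbb3, Tgfa and Areg, which rest on at most 95 reads per library.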
